A study of Mus musculus with 4 samples.

Results

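The genes considered here are Gria1, Gria2, Gria3 and Gria4, which encode the pore-forming subunits of AMPA receptors, and Grid1, which encodes a delta receptor. Sites of contact between Elavl proteins and RNA had been mapped by HITS-CLIP in mouse brain cortex (3 samples, each made with a degenerate 5′ linker of 25 nt, sharing 1 peak list named for 2 months) and in the mouse neuroblastoma line N2A (1 sample, with a linker of 7 nt and its own list). HITS-CLIP fixes proteins to their bound RNA with ultraviolet light, pulls the protein down with an antibody and reads out the RNA pieces still attached. No genotype or treatment is given for either group, and the labels do not say which Elavl proteins the antibody recognised. All deposited peaks were taken that overlapped the RefSeq span of a member gene (GRCm38) by at least 1 nt and lay on the strand of most of that gene's peaks. This gave 344 peaks out of 105110 in both lists together, and every one of the 344 came from the cortex list.

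AMPA receptors carry most of the fast excitatory current at synapses of the brain and are assembled as tetramers of these subunits. A pre-mRNA of this family is long, with large introns, and yields alternatively spliced and RNA-edited forms. Delta receptors resemble them in sequence, but act mainly as adhesion molecules that bind cerebellins released by the presynaptic side. Elavl proteins bind U-rich and AU-rich stretches, in introns, where they can influence splicing, and in 3′ untranslated regions, where they can influence stability and translation.

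The lists hold 97775 cortex and 7335 N2A peaks, each 50 to 51 nt wide, and give the authors' p-value for each peak but no read counts. Sequencing depth is therefore unknown. Neither list has values for individual samples, so no spread or test across samples can be given, and the intervals below are 95% intervals for counting error alone (exact Poisson for counts, Wilson for shares). Whether PCR copies were collapsed by means of the degenerate linker is not stated. Peaks of 1 gene share a transcript and are not replicates. Group, linker design and list size differ together and cannot be told apart. Peaks were present in 4 of 4 excitatory neuron, 3 of 5 interneuron, 4 of 5 astrocyte, 4 of 4 oligodendrocyte, 1 of 4 microglia and 2 of 8 sympathoadrenal marker genes in cortex. Over all coding genes the share was 40.6%. The sets are small and were not tested against it. The single microglia gene, P2ry12, shared all 8 of its peaks with the span of Med12l. In N2A the sympathoadrenal set was the only one of these 6 with peaks, in 5 of 8 genes, against 14.5% of all coding genes.

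All 5 receptor genes had Elavl peaks in cortex, against 40.6% of all 21900 protein-coding genes. Long genes had peaks more often. Of the 2429 coding genes of at least 100 kb, a class that includes all 5, 1906 had a cortex peak. A count of 5 of 5 therefore lies close to the share of long genes. None of the 5 had a peak in N2A, where 14.5% of coding genes had at least 1. With only 5 genes, a count of 0 lies close to that share. Among the 1062 coding genes with at least 20 cortex peaks, to which all 5 belong, 48.4% also had an N2A peak. The genes held 0.352% of the cortex list, and their 0 of 7335 peaks in N2A allows a share of up to 0.0409%. At the cortex share, a list of the N2A size would hold 25.8 such peaks. Both this number and the limit count peaks as if independent. They lie in only 5 genes, so both make the 0 look firmer than the gene counts do. The nearest N2A peaks lay outside the genes, 72.5 kb from Grid1 in the span of Wapl, 117 kb from Gria3 in Thoc2, 682 kb from Gria1 in Larp1, 1223 kb from Gria2 and 2407 kb from Gria4. RNA levels were not measured, so an absent peak cannot separate an RNA that was not made from one that was not bound, and in cortex the number of cells making an RNA cannot be told apart from the amount per cell.

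All 344 cortex peaks lay on 1 strand per gene, with 0 on the opposite strand. That strand was plus for Gria1, Gria3 and Grid1 and minus for Gria2 and Gria4. The RefSeq promoter table gives minus for Gria2 and for Gria4. It held no entry for Gria1, Gria3 or Grid1, so the strand of those genes rests on the peaks alone. Across all coding genes, 784 of 95671 pairs of a cortex peak and a gene lay off the majority strand.

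The number of peaks did not follow the length of the genes. Gria2, the subunit whose edited form makes AMPA receptors impermeable to calcium, is the shortest at 123 kb (chromosome 3, 80681450 to 80804227) and had 81 cortex peaks and 0 N2A peaks. That is 66.0 cortex peaks per 100 kb (52.4 to 82.0), the 8th highest density among the 1906 coding genes of at least 100 kb that had a cortex peak. Gria4, a subunit of fast receptors prominent in interneurons, spans 378 kb (chromosome 9, 4417893 to 4796234) and had 131 cortex peaks and 0 N2A peaks. Its density was 34.6 per 100 kb (28.9 to 41.1), which ranked 80 of 1906. Both densities lay well above the median of 7.18 per 100 kb over those long genes. Among all 8890 coding genes with a cortex peak, short ones included, Gria2 ranked 274th by density and Gria4 1202nd. Neither ranking was matched for length.

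The other genes had sparser peaks. Gria3, which pairs mainly with Gria2 in receptors of the adult forebrain, spans 278 kb (chromosome X, 41400819 to 41678601) and had 32 cortex peaks and 0 in N2A, or 11.5 per 100 kb in cortex (7.88 to 16.3). Gria1, the subunit inserted at synapses during long-term potentiation, spans 319 kb (chromosome 11, 57011571 to 57330244) and had 33 and 0, with a cortex density of 10.4 per 100 kb (7.13 to 14.5). Grid1 is the longest at 763 kb (chromosome 14, 34820003 to 35583387) and had 67 and 0, with the lowest cortex density, 8.78 per 100 kb (6.80 to 11.1). In order of density, Gria2 stood above Gria4, and Gria4 above the remaining genes, without overlap of the intervals. The intervals of Gria3, Gria1 and Grid1 overlapped, so their order is not resolved by counting error. Their ranks by density were 652, 720 and 826 of 1906.

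**Figure D1:**
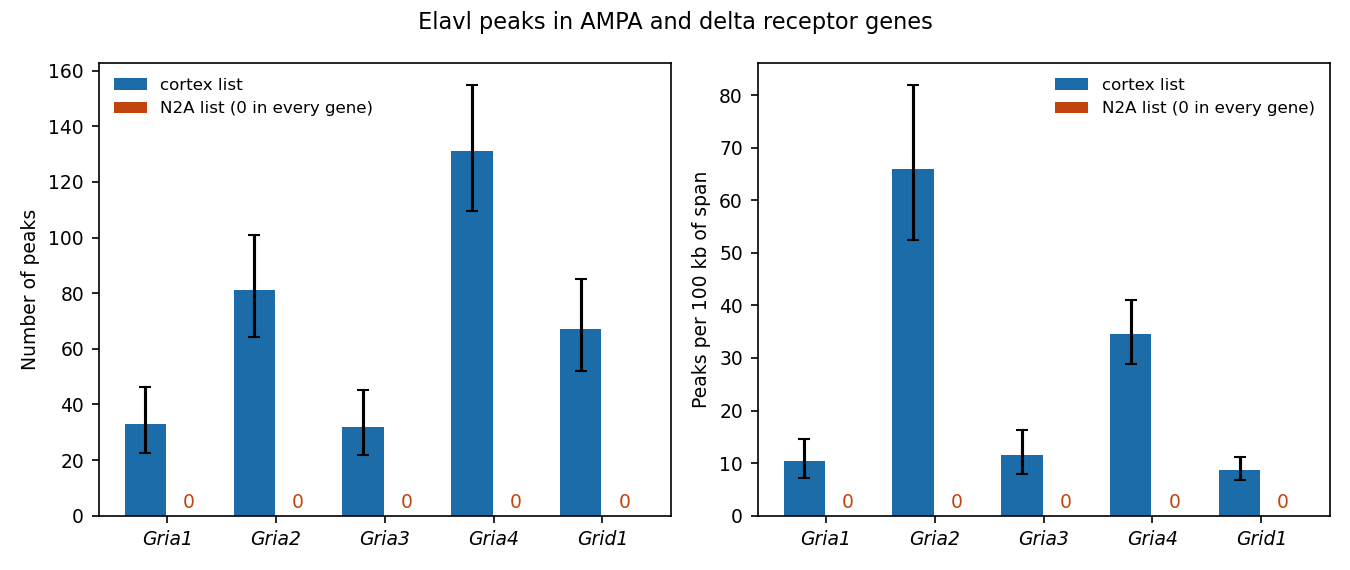
Number of Elavl peaks (left) and peaks per 100 kb of gene span (right) in the 5 receptor genes, with the cortex list in blue and the N2A list in orange, and bars for exact Poisson 95% intervals of the cortex counts. Gria4 has the highest count, 131, and Gria2 the highest density, 66.0 per 100 kb, and every N2A value is 0.

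Peak strength, read from the authors' p-value within the cortex list, also differed among the genes. In Gria2, 51 of 81 peaks were under 0.01 (63.0%, 52.1 to 72.7), in Gria1 19 of 33 (57.6%, 40.8 to 72.8), in Gria4 70 of 131 (53.4%, 44.9 to 61.8) and in Gria3 16 of 32 (33.6% to 66.4%), against 50.3% of the whole list. For Gria1, Gria3 and Gria4 the interval includes the share of the whole list. Grid1 had the weakest set, with 25 of 67 under 0.01 (37.3%, 26.7 to 49.3) and a median p of 0.0225, and Gria2 the strongest, with a median p of 0.00101. The median of the whole list was 0.00972. Ordered by the single strongest peak, Gria3 came first, 101st of the 8890 coding genes with a cortex peak, followed by Gria2 (260th), Gria1 (416th), Gria4 (723rd) and Grid1 (2470th).

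The position of the peaks along each gene gave further contrasts. The 5 receptor genes held 72 of 344 peaks in the last 10% of their spans (20.9%, 17.0 to 25.5), against 14.3% for the coding genes of at least 100 kb. In those long genes the share was 13.8% in the first 10% of the span and declined to 6.39% in the 9th interval of 10%. The 5 genes were far from alike in this: the share was 53.1% in Gria3 (36.4 to 69.1), 30.3% in Gria1 (17.4 to 47.3), 27.2% in Gria2 (18.7 to 37.7), 14.5% in Gria4 (9.49 to 21.5) and 5.97% in Grid1 (2.35 to 14.4). Gria4 lay at the level of the long genes as a whole, and in Gria1, Gria2 and Gria3 the whole interval was above it. The interval of Grid1 just included it. The comparison was not matched for length or number of peaks.

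**Figure D2:**
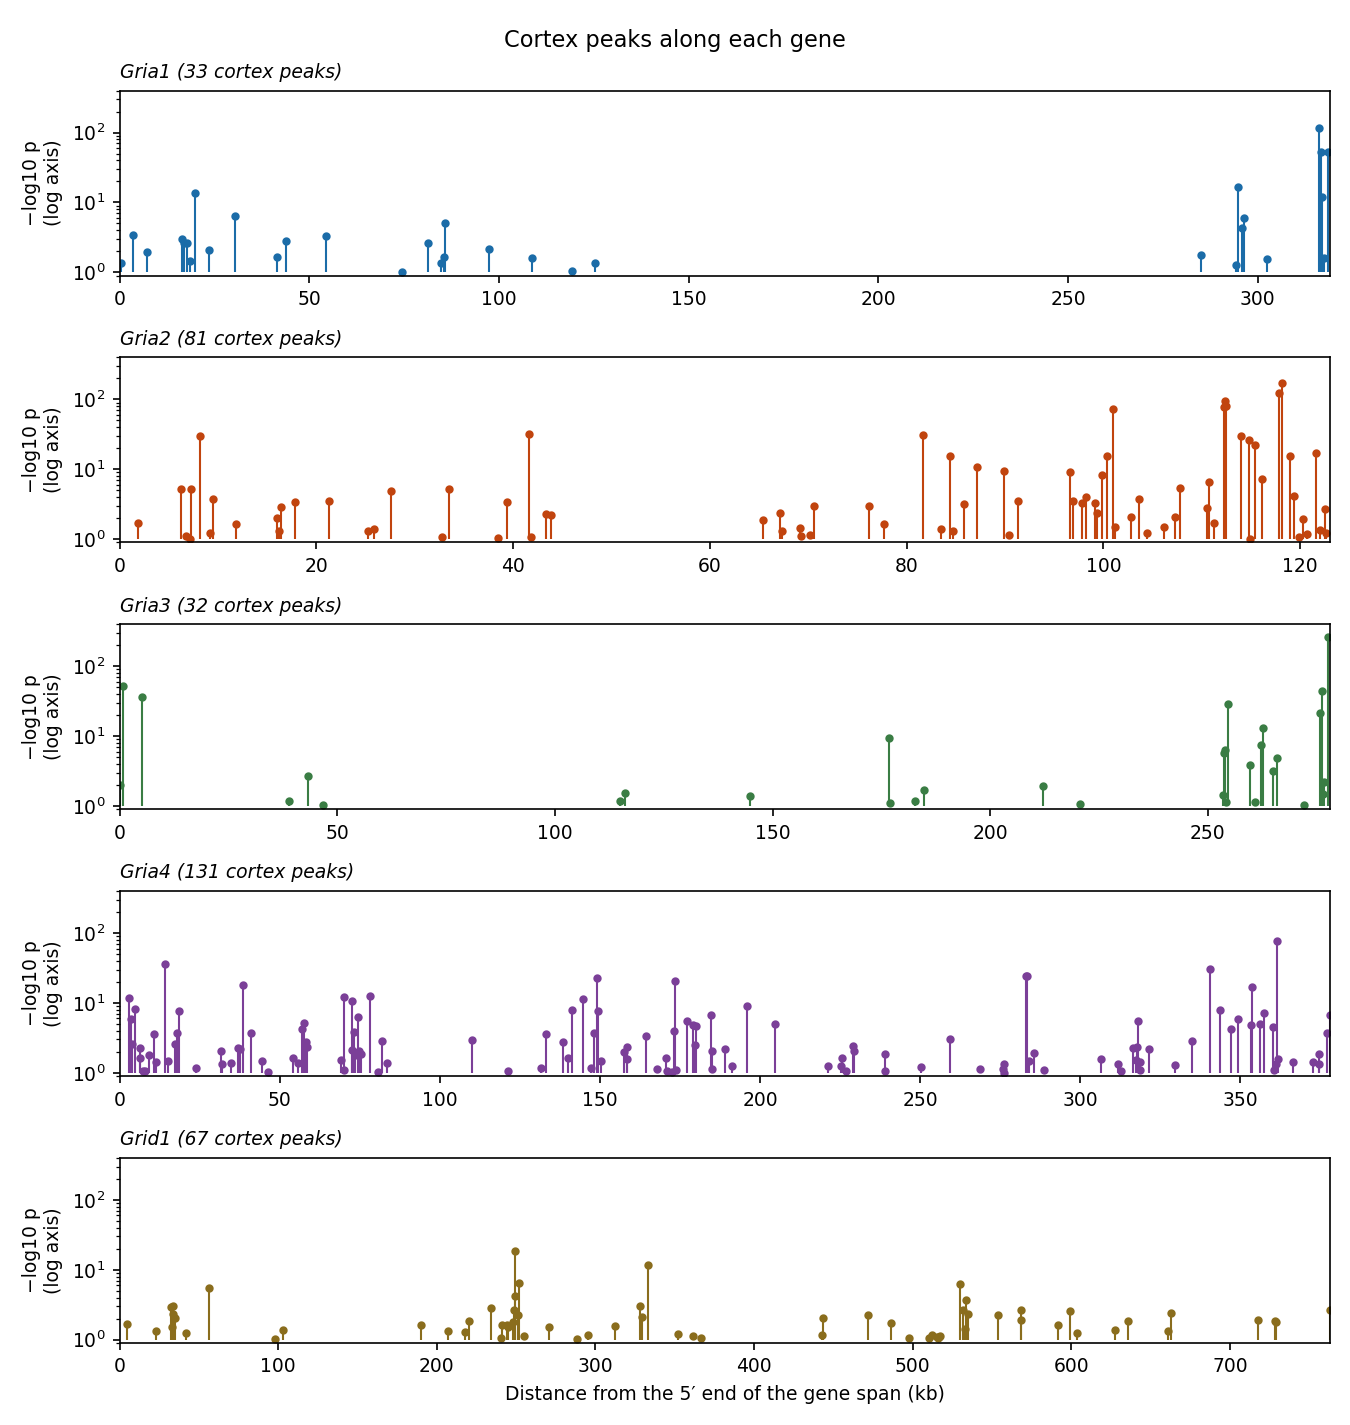
Each panel shows the cortex peaks of 1 gene by distance from the 5′ end of the span (kb) and by −log10 of the deposited p-value on a log axis, 1 stem per peak. Gria1, Gria2 and Gria3 carry their tallest stems near the right-hand end, whereas in Grid1 the tallest stem, p of 2.05e-19, stands 249 kb from the start.

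Gria1 had peaks at both ends and a long stretch without any between them. The first 40% of its span held 10, 3, 5 and 4 peaks per interval of 10%, the next 4 intervals held 0, the 9th held 1 and the last held 10. No peak was found from 125 kb to 285 kb after the start, a gap of 159.7 kb or 50.1% of the span. Of the 1062 coding genes with at least 20 cortex peaks, 7 had a longer gap relative to their span, and the median was 16.1%. Gaps tend to be longer where peaks are few, and these genes were not matched for number of peaks. The strongest Gria1 peak, at 57327824 to 57327875 (plus strand), had a p of 1.89e-118 and lay 2.37 kb from the gene end. The next were at 57330159 to 57330210, 34 nt from the end (p of 1.11e-53), and at 57328113 to 57328163, 2.08 kb from it (p of 1.38e-53). These 3 lay within 5 kb of the end, and the 4th strongest lay 23.8 kb from it (p of 1.52e-17). In the 5′ part of the gene the strongest peak was 19.9 kb from the start, with a p of 2.55e-14.

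Gria2 was covered with peaks over nearly its whole length, at a median spacing of 733 nt. Its one wide gap ran from 43.8 to 65.3 kb after the start, 17.5% of the span. That is close to the median gap of the 1062 genes, which were not matched for number of peaks. The first 50% of the span held 25 peaks and the second 56. The strongest, at 80686083 to 80686134 (minus strand, p of 3.84e-170), lay 4.63 kb from the gene end beside another at 80686316 to 80686366 (p of 1.59e-122). The peaks ranked 3 to 5 formed a close group 10.3 to 10.5 kb from the end, at 80691838 to 80691888 (p of 7.00e-95), 80691727 to 80691778 (p of 5.90e-81) and 80691965 to 80692016 (p of 8.73e-80). Peaks of that group were at most 100 nt apart and made the only run of 3 peaks at this spacing. Thus 3 of the 344 peaks lay in such runs, against 381 of 94887 cortex peaks of coding genes (0.402%). Gria2 is also the densest of the 5 genes, and the comparison was not matched for density. All 5 of the strongest Gria2 peaks lay in the last 10% of the span, and the next, 21.7 kb from the end, had a p of 1.54e-73.

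Peaks on the Gria2 strand continued beyond its annotated end. There were 4 within the 5 kb downstream, at 1.47, 1.58, 1.84 and 3.44 kb, of which the strongest, at 80679562 to 80679613, had a p of 1.61e-14. Such a peak, on the same strand and outside every coding span, followed 14.3% of the 1062 genes with at least 20 cortex peaks. Gria4 also had 1, 0.156 kb past its end (p of 0.0476), and the others had 0.

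In Gria3, 17 of 32 peaks lay in the last 10% of the span and 8 in the first 50%. The strongest, at 41678416 to 41678466 (plus strand), lay 135 nt from the gene end, and its p of 3.14e-260 was the lowest of all 344 peaks. Another at 41676927 to 41676977, 1.62 kb from the end, had a p of 4.38e-45. Gria3 differed from the other genes at its 5′ end, where the peak ranked second, at 41401476 to 41401527, lay 657 nt after the start with a p of 2.41e-53, and the peak ranked 4th lay 5.09 kb after it with a p of 4.80e-37. A peak among the 5 strongest lay within 5 kb of the start in 13.9% of the 1062 genes with at least 20 cortex peaks, and among the 5 receptor genes in Gria3 alone. Between 46.8 and 115 kb after the start Gria3 had no peak.

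Peaks of Gria4 were spread over the whole span. The longest gap was 26.5 kb, 6.99% of the span, and 997 of the 1062 genes had a longer one relative to their length. Gaps shrink as peaks are added, and Gria4 ranked 64th of all coding genes by number of peaks. The comparison was not matched for that number. The first and second intervals of 10% held 22 and 20 peaks and the last held 19. Its strongest peak, at 4434659 to 4434709 (minus strand, p of 7.46e-77), lay 16.8 kb from the gene end. The next was near the other end, 14.2 kb after the start at 4781979 to 4782030 (p of 8.08e-37). The peaks ranked 4th and 5th, at 4513069 to 4513119 and 4512659 to 4512710, lay 94.8 to 95.2 kb from the end with p of 3.33e-25 and 5.56e-25. Within the first 5 kb there were 4 peaks, with the lowest p at 2.09e-12. A long noncoding RNA gene, Gm46101, lies inside the Gria4 span and contained 4 of the 131 peaks, none with a p under 0.0462. Those 4 cannot be assigned to either gene.

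Grid1 had its strongest peaks deep inside the gene. The strongest, at 35069447 to 35069498 (plus strand, p of 2.05e-19), lay 249 kb after the start and 514 kb before the end, in the interval from 30% to 40% of the span, which held 15 of the 67 peaks. The next, at 35152897 to 35152948, lay 333 kb after the start with a p of 1.86e-12. Another 13 peaks lay between 60% and 70% of the span, the strongest of them 530 kb after the start with a p of 5.34e-07. The end of the gene held a single peak within 5 kb, 169 nt from the end, with a p of 0.00221. Inside the span, the long noncoding RNA gene Gm41133 and the pseudogene Gm19016 contained 1 peak each. The Grid1 span also hosts Mir346, a microRNA on the same strand, and no peak fell on it, the nearest being 18.2 kb away. Its mature products are shown because they are annotated products of the Grid1 locus with no peak on them (RefSeq, GRCm38.p6, chr14:34894624-34894646 and chr14:34894662-34894683, plus strand, with the seed, bases 2 to 8, in capitals).
mmu-miR-346-5p: uGUCUGCCcgagugccugccucu
mmu-miR-346-3p: aGGCAGGGgcugggccugcagc

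The end of a transcript is where a 3′ untranslated region would lie, and the share of peaks within 5 kb of the gene end was therefore set beside that of other genes. Exons and untranslated regions were not annotated in the table used here, so distance stands in for them. The receptor genes had 26 of 344 there (7.56%, 5.21 to 10.8), against 8.63% over the coding genes of at least 100 kb and 19.9% over all coding genes. Gria3 had 5 of 32 (15.6%, 6.86 to 31.8), Gria1 5 of 33 (15.2%, 6.65 to 30.9), Gria2 11 of 81 (13.6%, 7.76 to 22.7), Gria4 4 of 131 (3.05%, 1.19 to 7.59) and Grid1 1 of 67 (1.49%, 0.264 to 7.98). The intervals of Gria1, Gria2 and Gria3 include the share of the long genes and those of Gria4 and Grid1 lie below it. A window of 5 kb is a smaller part of a longer span, and the comparison was not matched for length. The lower shares therefore do not show that these ends hold few peaks for their length.

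Per unit of length the end was denser than the rest of the gene in every case. In Gria2 it held 2.20 peaks per kb (1.10 to 3.94), against 0.594 in the rest (0.463 to 0.751). Gria1 had 1 per kb at the end (0.325 to 2.33), against 0.0893 elsewhere (0.0593 to 0.129), and Gria3 1 (0.325 to 2.33), against 0.0990 (0.0652 to 0.144). In Gria4, with 0.800 per kb at the end (0.218 to 2.05) and 0.340 elsewhere (0.284 to 0.405), and in Grid1, with 0.200 (0.00506 to 1.11) and 0.0870 (0.0673 to 0.111), the intervals overlapped. The long coding genes with a cortex peak had 0.528 per kb at the end and 0.104 elsewhere. The end interval of Gria2 lay above that 0.528, and those of Gria1, Gria3, Gria4 and Grid1 included it.

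Peaks near the end were also stronger in Gria1 and Gria3. The median p of the last 5 kb was 1.38e-53 in Gria1, against 0.00729 in the rest of the gene, and 6.40e-22 in Gria3, against 0.0110. In Gria4 the medians were 0.00754 at the end and 0.00716 elsewhere. Gria2 had 6 of 11 end peaks and 45 of 70 others with a p under 0.01, and Gria4 had 2 of 4 and 68 of 127. The strongest peak lay within 5 kb of the end in Gria1, Gria2 and Gria3 and elsewhere in Gria4 and Grid1. It lay there in 48.7% of the 1062 genes with at least 20 cortex peaks. The last 10% of the span held the strongest peak in 4 of the 5 receptor genes, Grid1 being the exception, against 55.1% of the 1062. Within 5 kb of the start lay 10 of 344 peaks (2.91%, 1.59 to 5.27), against 1.92% over the coding genes of at least 100 kb and 6.07% over all coding genes, short ones included. Per unit of length this was 0.400 peaks per kb (0.192 to 0.736), against 0.182 in the rest of the receptor genes (0.163 to 0.203), and the intervals overlapped.

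**Figure D3:**
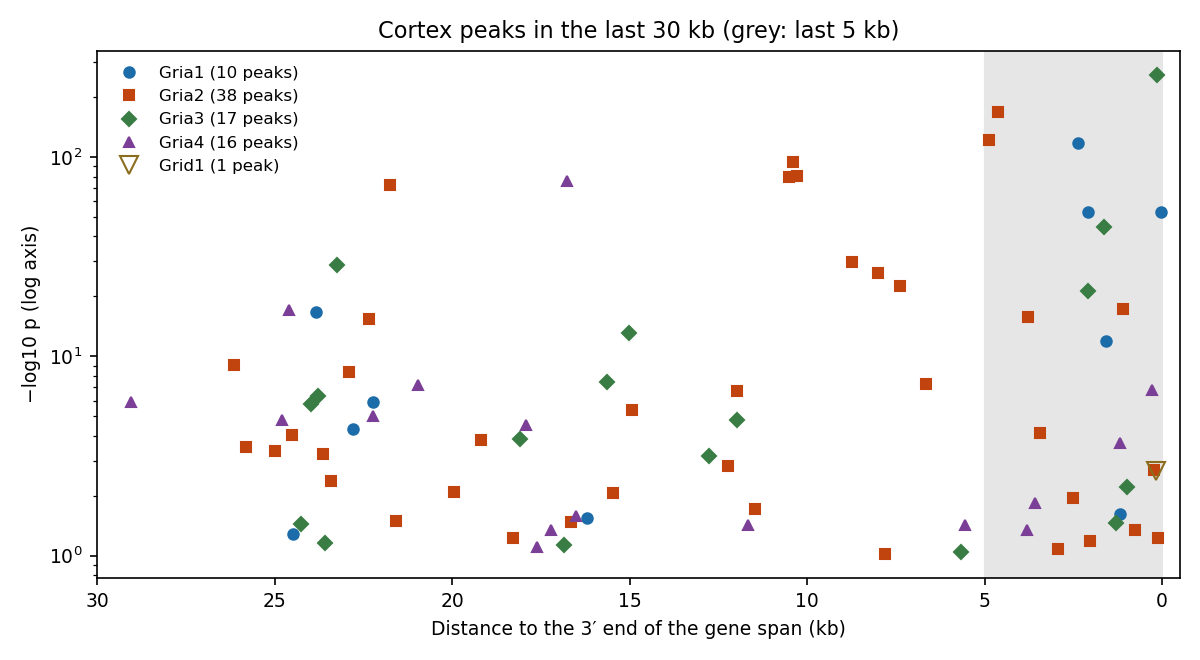
Cortex peaks in the last 30 kb of the 5 genes, by distance to the 3′ end of the span (kb, end at the right) and −log10 of the deposited p-value on a log axis. Gria2 has 38 peaks in this stretch and Grid1 has 1, and the tallest points of Gria1 and Gria3 fall within 3 kb of the end.

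The profile over the 10 intervals of the span was compared between genes as the summed difference in shares of peaks, divided by 2, which is 0 for equal profiles and 1 for profiles that share no interval. Among the receptor genes the closest pair was Gria2 and Gria4 (0.310) and the most different Gria1 and Grid1 (0.565). The median difference from the 1062 coding genes compared was 0.377 for Gria2 and 0.332 for Gria4, only a little above 0.310. It was 0.455 for Gria1 and 0.405 for Grid1. Differences were not matched for number of peaks. Among all 1062 genes with at least 20 cortex peaks, Glg1 (0.136) was closest to Gria1, Kcnma1 (0.127) and Spred1 (0.139) to Gria2, and Ttbk2 (0.121) and Appl1 (0.138) to Gria3. For Gria4 they were Aff4 (0.0854) and Tenm1 (0.0966), and for Grid1 Arid1b (0.151) and Rapgef4 (0.172). The median over the genes compared was 0.332 to 0.510 for these 5 members. The profiles rest on the cortex list alone and on 21 to 131 peaks per gene. Of these 9 neighbours, Glg1 and Spred1 had 5 N2A peaks each, Aff4 had 3, Arid1b 2, Ttbk2 and Appl1 1 each and the other 3 had 0.

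**Figure D4:**
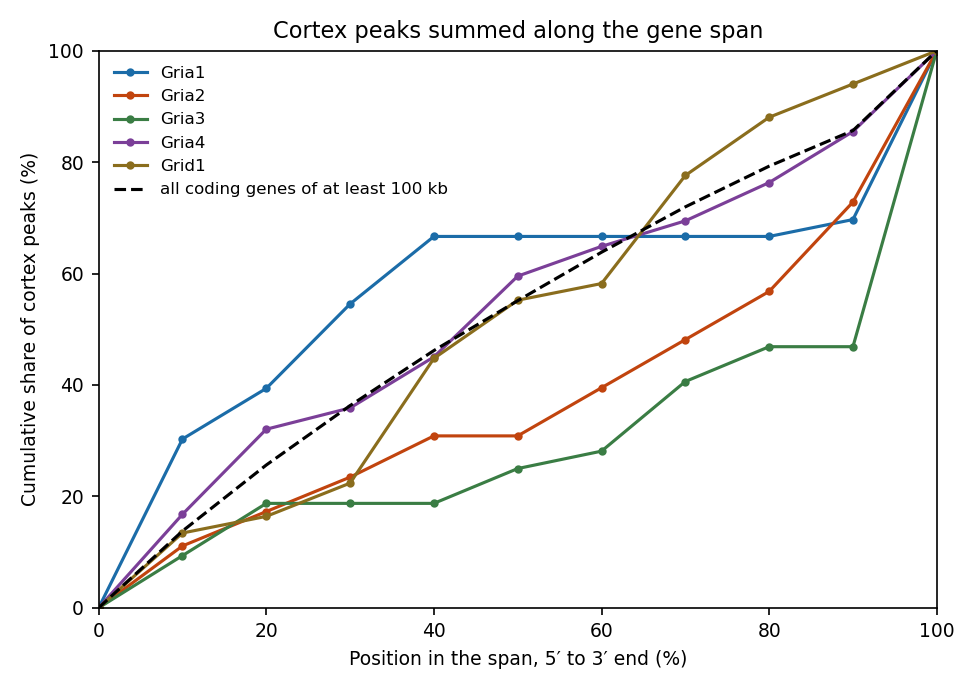
Cumulative share of cortex peaks (%) along the gene span from the 5′ to the 3′ end (%), for the 5 receptor genes (solid lines) and for all coding genes of at least 100 kb (dashed). The line of Gria1 is flat from 40% to 80% of the span, that of Gria3 rises most steeply in the last 10%, and that of Gria4 stays near the dashed line.

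Of the 12 kainate and NMDA receptor genes, 10 had cortex peaks, against 40.6% of all coding genes, and 0 had N2A peaks, against 14.5%. With so few genes, a count of 0 lies close to that background. For cortex, 1906 of the 2429 coding genes of at least 100 kb had a peak, and these 12 genes were not matched for length. The 5 kainate receptor genes had 357 peaks, 334 of them in Grik2 (48.0 per 100 kb), a density below that of Gria2 and above that of Gria4. The 7 NMDA receptor genes had 187, mainly in Grin2a (92, or 21.5 per 100 kb) and Grin2b (90, or 19.5 per 100 kb), with 0 in Grin2d and Grin3b. The share within 5 kb of the end was 9.03% over the 4 AMPA genes (6.19 to 13.0), against 3.08% over the kainate genes (1.73 to 5.43) and 9.09% over the NMDA genes (5.75 to 14.1). The kainate share is largely that of Grik2, with 6 of its 334 peaks there. These shares were not matched for gene length.

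**Figure D5:**
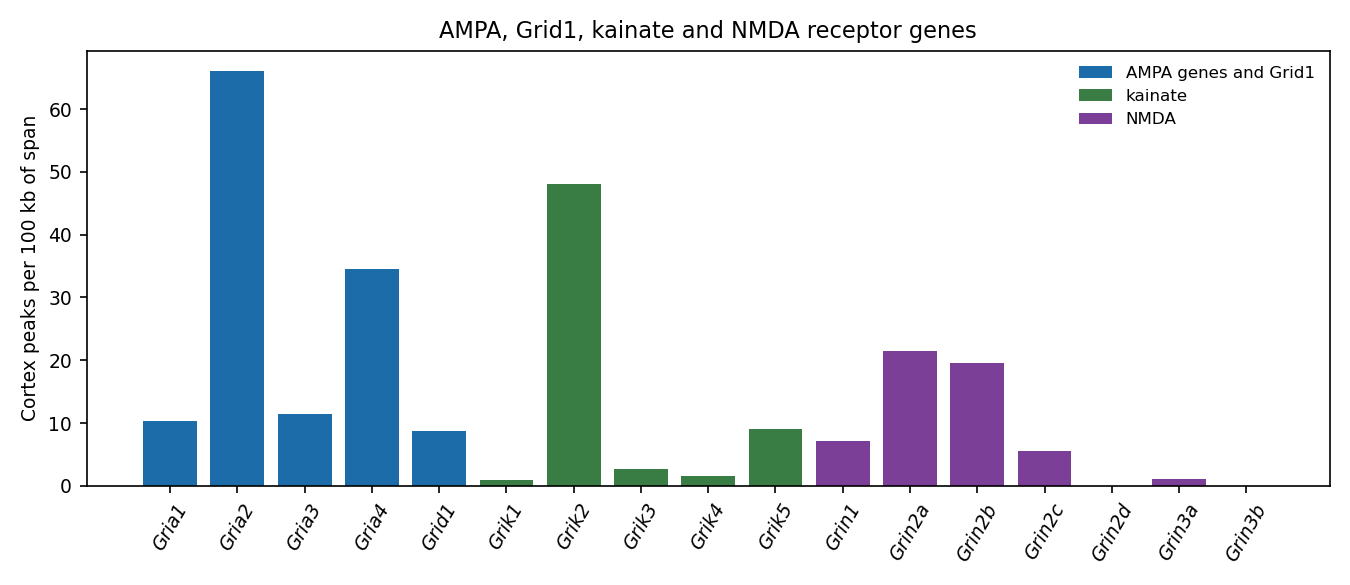
Cortex peaks per 100 kb of gene span in the AMPA receptor genes and Grid1 (blue) and in the kainate (green) and NMDA (purple) receptor genes. Gria2 is highest at 66.0, Grik2 and Gria4 follow at 48.0 and 34.6, and Grin2d and Grin3b are at 0.

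Of 44 genes whose products assemble with, traffic, anchor or edit these receptors, 41 had cortex peaks (93.2%, against 40.6% of all coding genes) and 5 had N2A peaks (11.4%, near the 14.5% of all coding genes). The shares of all coding genes were not matched for gene length. In 38 of the 41 at least 1 cortex peak lay in no other coding gene. The 22 auxiliary and biogenesis genes each had a cortex peak, though the only peak of Prrt1 also lay in Ppt2, and 0 had one in N2A. Among them Cacng2, which encodes stargazin, the founding AMPA auxiliary subunit, had 7 peaks with a lowest p of 2.25e-100, 2.68 kb from the gene end. Frrs1l, which acts in receptor biogenesis in the endoplasmic reticulum, had 2 peaks, with the lowest p at 2.73e-236, 1.15 kb from the end. Olfm3, a secreted olfactomedin found in AMPA receptor complexes, had 62. The share of peaks within 5 kb of the end was 7.56% for the receptor genes, against 24.3% for these 22 (18.8 to 30.9), many of which are shorter.

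All 5 partner genes with N2A peaks belonged to the 8 scaffold and trafficking genes. They were Dlg4, encoding the postsynaptic scaffold PSD-95 (13 cortex and 2 N2A peaks), Epb41l1, encoding the protein 4.1N that binds Gria1 (6 and 2), Dlg1, encoding SAP97 (64 and 1), Grip1, a multi-PDZ scaffold that binds Gria2 (59 and 1), and Sacm1l, a phosphoinositide phosphatase (19 and 1). The strongest Dlg4 peak in cortex, with a p of 5.31e-165, lay 16 nt from the gene end. The set of extracellular and delta receptor partners had cortex peaks in 9 of 11 genes. The number was 7 of 11 when peaks that also lay in another coding gene were left out. All peaks of Nptxr lay in Npcd and all of Lrrtm2 in Ctnna1 as well. Lrrtm4 alone, with a span of 791 kb, held 262 of the 287 cortex peaks of these 11 genes. The cerebellin genes Cbln1, Cbln2 and Cbln4, whose products include delta receptor ligands, had 2, 5 and 1 cortex peaks. Nptx1, a pentraxin that clusters AMPA receptors, had 3, with the lowest p at 1.13e-171. Each of the 3 genes of the RNA editing enzyme family had cortex peaks, 8 in Adar, 20 in Adarb1, the enzyme that edits Gria2 (lowest p of 7.17e-106), and 62 in Adarb2.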

How the data were processed

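Elavl HITS-CLIP of 3 cortex samples and 1 N2A sample was deposited as 1 peak list per group. Per the file headers, a list holds the position, strand, label and p-value of every peak, and the deposited p-value is the authors' own. The sources used here do not give its adjustment, the peak caller, the filters or any merging of samples. Novoalign and hg19 are named in the submitters' processing notes. Chromosome names are those of mouse, and 94.9% of cortex and 94.6% of N2A peaks touched a coding span of GRCm38.p6, against 39.3% to 44.8% after shifts of 1, 3 or 5 Mb, so coordinates were read as GRCm38 and printed as deposited. Whether they count from 0 or 1 is not stated.

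Peaks were paired with every coding gene they touched by at least 1 nt, and kept on the strand of most of the gene's peaks. Distances run from the peak to the end of the RefSeq span. Counts, shares, percentiles and intervals were computed with Python 3.11.15, pandas 2.3.3 and SciPy 1.17.1. The counting was tested on simulated data, where 400 of 400 genes were recovered. The planned counts per exon class, base composition, motifs and protein comparison were not run, because no genome, exon annotation or protein table was used here.

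The 5 genes, the partner lists and the windows were chosen with earlier results of these data known. Some results on other genes are not reported here. Named genes were the members, the 2 genes nearest to each by profile (1 for Gria1), and genes of the partner and receptor lists. Alternatives were a stricter p, other windows, strand and overlap rules, an extended span, merged peaks and other spacings.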

Additional observations from a re-analysis of the deposited data

How the results depend on the processing

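With a p under 0.01 the receptor genes kept 181 of 344 cortex peaks, and their share in the last 10% of the span was 26.0% instead of 20.9%. Requiring the whole peak inside the span or taking both strands left 344 peaks, and extending the span by 5 kb gave 349. Merging peaks closer than 50 nt gave 337. Leaving out peaks inside other annotated genes, an alternative chosen after seeing the data, gave 338. The N2A count was 0 under each of the 4 alternatives tried for it, but none of them could have changed it. A stricter p or the whole-peak rule can only remove peaks. The nearest N2A peak on either strand lay 72.5 kb from a member gene, beyond the 5 kb extension. The share near the gene end was 4.07% with a window of 2 kb, against 7.56% with 5 kb. Peaks in runs of at least 3 numbered 3 at a spacing of up to 100 nt, 0 at 50 nt and 74 at 500 nt. Of the 5 partner genes with N2A peaks, 2 remained with a p under 0.01 and 2 with at least 2 peaks. Fewer peaks or another distance enter by construction in each of these. No paired analysis was possible because each group has a single list and no value belongs to a sample. For the same reason no replicate could be left out. The alternative for motifs, with wider peak intervals, was not run.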
